A study of Homo sapiens with 4 samples.

Results

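The mitochondrial ribosomal protein genes were taken as every gene in the expression table whose symbol begins with MRPL or MRPS followed by a digit. The rule uses names and no measured value. It found 74 genes among the 18806 listed, 46 with an MRPL symbol (large subunit) and 28 with an MRPS symbol (small subunit). All 74 matched a gene of GENCODE 44 on GRCh38, where they are spread over 21 chromosomes, and all 74 had a mean above 1 TPM and were tested, where TPM is the share of a gene in the transcripts of a library, corrected for transcript length and scaled to a sum of 1000000. MRPL18, MRPL49 and MRPS25 are not analysed here.

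The samples were Huh7 cells, an established line of human hepatocellular carcinoma, analysed by RNA-seq. As to the library type, the labels name both a depletion of ribosomal RNA and a stranded kit for mRNA. A single Huh7 clone that carries Cas9 was transduced with lentiviral guide RNA and selected with hygromycin B, so all 4 libraries share the clone, Cas9 and the selection. The sgNS group (2 libraries, genotype given as WT) received a non-targeting guide. The METTL16 KO group (2 libraries) received guide RNA against METTL16, which encodes an RNA m6A methyltransferase. The titles number the libraries of each group 1 and 2, and do not say whether the METTL16 KO libraries share 1 guide. The labels give the genotype of the second group as a knockdown and do not say whether the 2 libraries of a group came from separate cultures, while the methods speak of biological replicates, so the p-values measure only the spread between these libraries.

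The mitochondrial ribosome, or mitoribosome, translates the few proteins that mitochondrial DNA encodes, all of them subunits of the oxidative phosphorylation complexes. Its RNA parts are made inside mitochondria, whereas each of its proteins is encoded in the nucleus, made on cytosolic ribosomes and imported. Some of the proteins have counterparts in the bacterial ribosome and others occur only in mitochondria. Liver cells are rich in mitochondria, and the nuclear genes of these proteins are known to be bound at their promoters by general factors such as NRF1, the ETS factor GABP and YY1.

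The promoters are shown first because a short sequence recurs in them at the start of the coding region. RefSeq promoter windows on GRCh38.p14, which run from 250 bases before to 50 bases after the gene start, were matched for 66 of the 74 genes. AAGATGGC, the core motif of YY1, was found on either strand in 20 of the 66 windows (30.3%), against 3.03% of 27305 RefSeq promoters and 5.53% of the 9331 promoters of genes tested here. In 16 genes the match lay on the strand of the gene, and in 12 of these its ATG is a start codon in GENCODE 44. The windows from 70 bases before to 50 bases after the start are given for the 4 strongest risers with such a match and for the 2 genes with such a match that fell, each 5′ to 3′ on the strand of the gene, with the motif in capitals. They lie at chr15:88467339-88467458 (minus strand) for MRPL46, chr17:75904835-75904954 (minus strand) for MRPL38, chr9:101398569-101398688 (minus strand) for MRPL50, chr7:43869468-43869587 (minus strand) for MRPS24, chr5:72320191-72320310 (minus strand) for MRPS27 and chr17:38297098-38297217 (plus strand) for MRPL45.
MRPL46: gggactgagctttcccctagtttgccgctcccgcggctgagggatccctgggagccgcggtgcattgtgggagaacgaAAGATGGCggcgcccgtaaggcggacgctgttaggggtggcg
MRPL38: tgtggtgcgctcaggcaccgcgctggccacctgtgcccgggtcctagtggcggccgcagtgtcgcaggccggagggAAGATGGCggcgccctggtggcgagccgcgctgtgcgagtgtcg
MRPL50: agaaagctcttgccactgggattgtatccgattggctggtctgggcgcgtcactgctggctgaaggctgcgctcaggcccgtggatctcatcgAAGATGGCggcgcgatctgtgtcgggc
MRPS24: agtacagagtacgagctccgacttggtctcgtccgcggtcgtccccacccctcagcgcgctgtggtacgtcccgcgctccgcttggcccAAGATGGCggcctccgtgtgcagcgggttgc
MRPS27: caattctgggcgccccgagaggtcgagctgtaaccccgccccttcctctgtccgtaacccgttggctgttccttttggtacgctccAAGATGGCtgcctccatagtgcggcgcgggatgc
MRPL45: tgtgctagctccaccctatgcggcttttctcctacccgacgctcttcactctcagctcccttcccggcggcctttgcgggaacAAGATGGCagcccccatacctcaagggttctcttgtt
In these 6 windows the ATG inside the capitals is the annotated start codon and stands between 9 and 26 bases after the gene start. Of the 12 genes whose match holds the start codon in this way, 10 were higher and 2 were lower in METTL16 KO. The shares were 58.1% higher and 20.3% lower over the whole family, and 50.1% and 25.6% over all genes tested. MRPS10 and MRPS18B, among these 10, were not called after median-ratio scaling, which sets the typical gene equal in all libraries. Their log2 fold changes were then 0.0014 and -0.047.

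The libraries and the targeted gene were examined before the ribosomal genes. METTL16 had 26.3 and 25.1 TPM in sgNS, against 17.6 and 18.8 TPM in METTL16 KO, with a log2 fold change of -0.50 (standard error 0.062) and an adjusted p of 2.4e-05. Each library sums to 1000000 TPM, the depth of the libraries is unknown because TPM keeps no read counts, and no counting error can be given. All 12 hepatocyte or hepatoma markers were at or above 1 TPM, against 2 of 5 leukocyte, 1 of 3 endothelial, 1 of 5 fibroblast or stellate and 1 of 3 cholangiocyte markers. The summed level of the hepatocyte markers was 19763 to 19820 TPM in sgNS and 34249 to 34722 TPM in METTL16 KO, with AFP going from 1765 to 10292 TPM and ALB from 7487 to 9981 TPM as group means. That of the leukocyte markers, of which CD68 and LYZ reached 1 TPM, was 1514 to 1557 TPM and 919 to 933 TPM. The 100 most abundant genes held 32.6% and 32.8% of the TPM of the sgNS libraries and 28.6% and 28.7% of those of the METTL16 KO libraries. Since each library has the same total, such shifts bear on the TPM of other genes, and their part in the values of the ribosomal genes was not tested. The samples are a single Huh7 clone, so the marker lists give levels of genes and not shares of cell types. In bulk RNA, fewer cells that express a gene and less RNA per cell cannot be told apart.

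On TPM as deposited, the mitochondrial ribosomal protein genes were more often higher than lower in METTL16 KO, by shares close to those of all genes. At an adjusted p under 0.05 from limma, 43 of the 74 genes were higher and 15 were lower, and 16 did not pass. These are 58.1% and 20.3% of the family, while over all 11971 genes tested 50.1% were higher and 25.6% were lower. Median-ratio scaling, which sets the typical gene equal in all libraries, left 28 higher and 23 lower with a median of 0.0071, and quantile normalization left 30 higher and 22 lower with a median of 0.046. The median change of the 74 genes was 0.17 on the log2 scale (SD 0.36 over genes), next to 0.16 over all genes, and 38 of the 74 lay above the median of all genes. The 2 sgNS libraries did not overlap the 2 METTL16 KO libraries in 67 of the 74 genes, while 87.4% of all genes tested did not overlap. The changes of its members ranged from -1.15 for MRPL21 to 0.77 for MRPL46. Only MRPL21 passed an unadjusted p under 0.01 together with a change of at least 1 in either direction on the log2 scale, which 11.4% of all genes tested did.

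**Figure D1:**
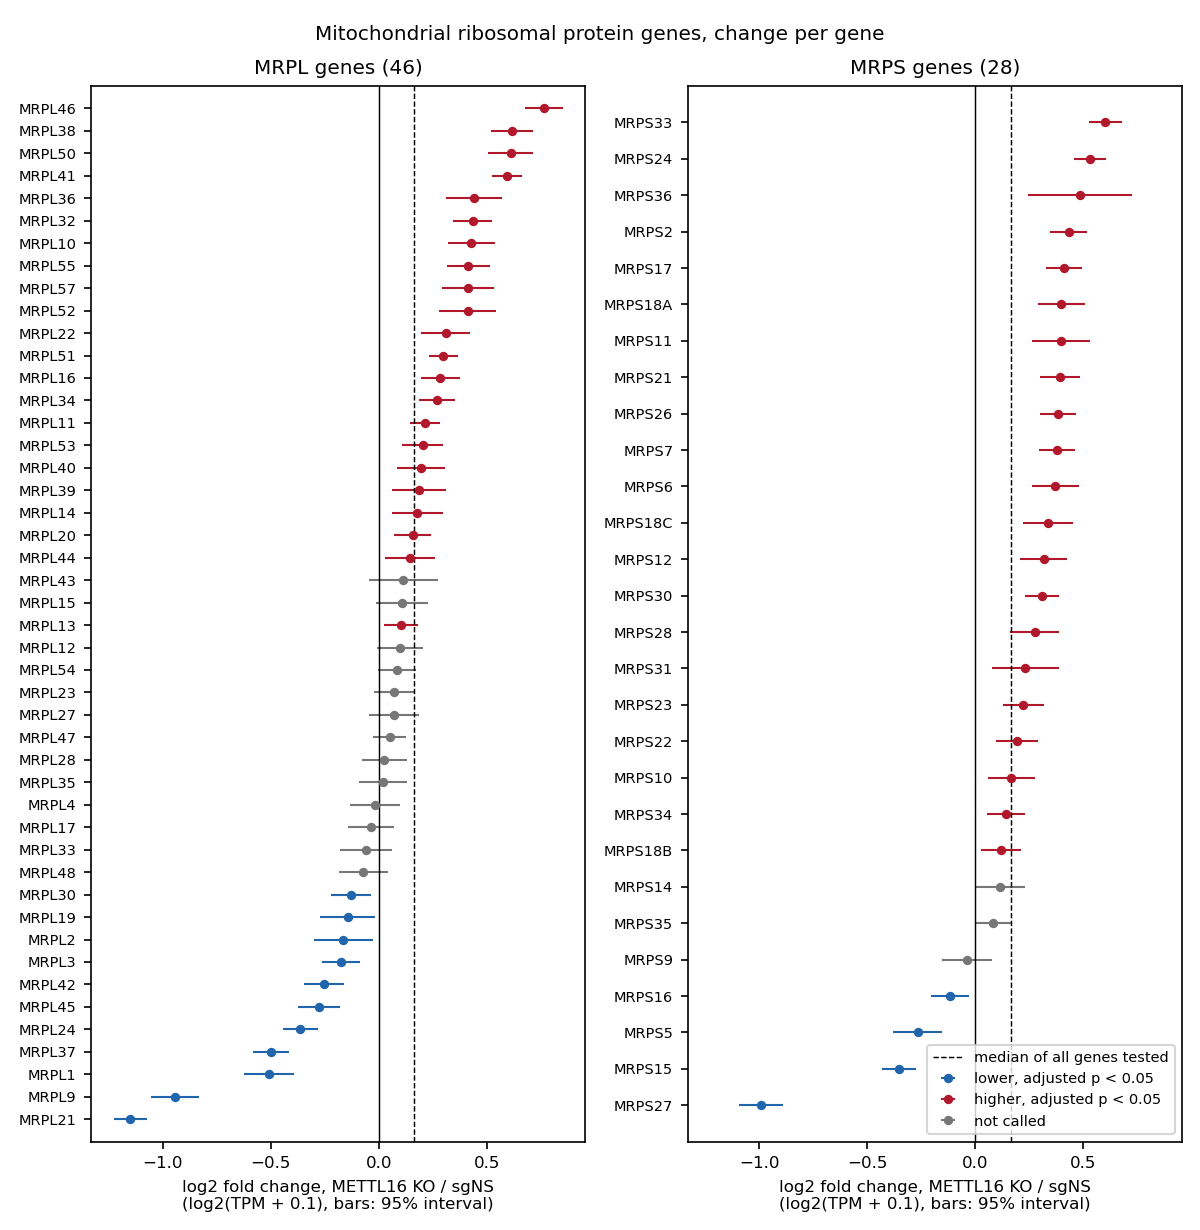
Log2 fold change of each MRPL gene (left) and MRPS gene (right) in METTL16 KO against sgNS, with bars for the 95% interval from limma and colours for the call at an adjusted p under 0.05. The changes range from -1.15 (MRPL21) to 0.77 (MRPL46), and the dashed line marks the median of 0.16 over all genes tested.

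The spread between libraries of 1 group was small beside these changes. The median absolute log2 difference between libraries was 0.057 in sgNS and 0.037 in METTL16 KO, and the median absolute log2 fold change of the members was 0.27. The widest gap was 0.44 between the sgNS libraries, in MRPS36, and 0.22 between the METTL16 KO libraries. Across the 74 genes the change was weakly related to the mean TPM (Spearman's rho 0.15) and to the length of the canonical transcript (rho -0.15), a description across genes that share the same 4 libraries.

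The small subunit genes had the higher share of rises, although the subunits were not tested against each other. Of the 28 MRPS genes, 21 were higher, 4 were lower and 3 did not pass, and the median change (log2) was 0.29. Of the 46 MRPL genes, 22 were higher, 11 were lower and 13 did not pass, with a median of 0.11. The higher and lower shares were 75% and 14.3% of the MRPS genes and 47.8% and 23.9% of the MRPL genes, next to 50.1% and 25.6% of all genes tested, whose median was 0.16. The same number of genes in each group, 19, lay above the median of all genes. The groups of libraries did not overlap in 27 MRPS genes (96.4%) and in 40 MRPL genes (87.0%), next to 87.4% of all genes.

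The balance of higher and lower MRPL genes depended on the scaling. When median-ratio scaling was applied, the median over all genes moved from 0.16 to -0.0016, 36.4% of all genes were higher and 36.5% were lower. Under this scaling 14 MRPL genes were higher and 18 were lower with a median of -0.059, and 14 MRPS genes were higher and 5 were lower with a median of 0.13. Quantile normalization gave 15 higher and 17 lower MRPL genes with a median of -0.017, and 15 higher and 5 lower MRPS genes with a median of 0.16. The difference between the MRPS and MRPL medians was 0.185 on TPM as deposited, 0.185 under median-ratio scaling and 0.180 under quantile normalization. Of the 74 genes, 15 were lower (11 MRPL and 4 MRPS) and 28 were higher (14 MRPL and 14 MRPS) under all 3.

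**Figure D2:**
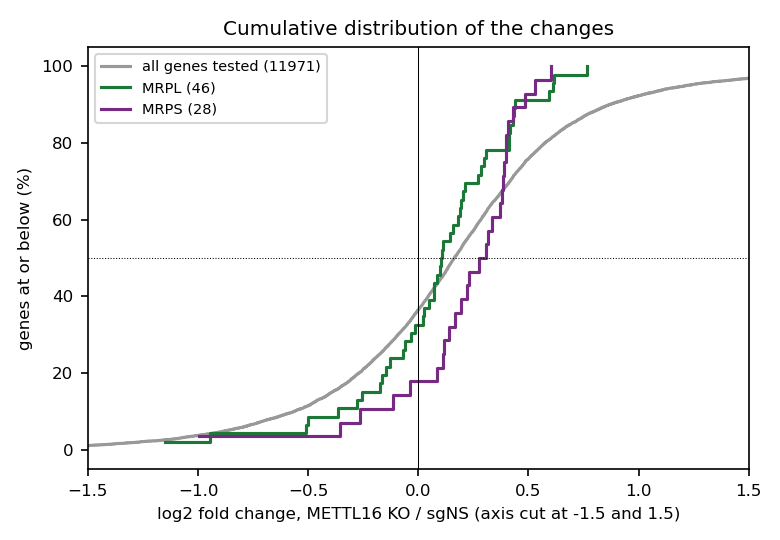
Share of genes (vertical axis, %) at or below each log2 fold change (horizontal axis) for the 46 MRPL genes, the 28 MRPS genes and all 11971 genes tested. The MRPS curve lies to the right of the MRPL curve at its middle, where the medians are 0.29 and 0.11.

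MRPL genes summed to 4907 and 4917 TPM in sgNS and to 5339 and 5381 TPM in METTL16 KO, a log2 ratio of 0.13. MRPS genes summed to 2425 and 2465 TPM in sgNS and to 2890 and 2917 TPM in METTL16 KO, a log2 ratio of 0.25. In both sums the METTL16 KO libraries lay above the sgNS libraries. The MRPL sum was 2.02 and 1.99 times the MRPS sum in the sgNS libraries and 1.85 and 1.84 times in the METTL16 KO libraries, and this ratio does not depend on how a library is scaled as a whole. The ratio of the median MRPL level to the median MRPS level went the other way, from 1.04 and 1.07 to 1.08 and 1.09. After median-ratio scaling the log2 ratio was -0.040 for MRPL and 0.082 for MRPS, so the direction of the MRPL sum turned. Symbols do not always give the place of a protein. MRPS30 and MRPS18A encode proteins of the large subunit, and MRPS36 encodes a subunit of the 2-oxoglutarate dehydrogenase complex. Counted by place, 24 of 48 large subunit genes were higher and 11 were lower with a median of 0.11, and 18 of 25 small subunit genes were higher and 4 were lower with a median of 0.23. These are 50% and 22.9% of the large and 72% and 16% of the small subunit genes, so that the large subunit stood at about the shares of all genes (50.1% and 25.6%).

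The genes of the cytosolic ribosome had the opposite balance. Of 78 cytosolic ribosomal protein genes tested, found by symbol, 8 were higher and 63 were lower, and the median change (log2) was -0.18. These are 10.3% and 80.8%, next to 50.1% and 25.6% of all genes tested. Under median-ratio scaling the cytosolic median was -0.35, with 2 higher and 69 lower, next to 36.4% and 36.5% of all genes. Quantile normalization gave a cytosolic median of -0.042, with 27 higher and 36 lower. No test of the difference between the families was run.

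MRPL21, whose product has a bacterial counterpart in the large subunit, showed the largest fall. It lies on the minus strand of chromosome 11 from 68891276 to 68903835. It had 261 and 259 TPM in sgNS, against 115 and 118 TPM in METTL16 KO. Both METTL16 KO libraries lay far below both sgNS libraries. The log2 fold change was -1.15 (standard error 0.035), a 2.22-fold fall, with an adjusted p of 5.0e-10 from limma.

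MRPL9 followed, which also has a bacterial counterpart and lies on the minus strand of chromosome 1 from 151759647 to 151763496. Its levels were 70.5 and 73.6 TPM in sgNS and 36.2 and 38.5 TPM in METTL16 KO. It fell by 0.95 on the log2 scale (standard error 0.050), with an adjusted p of 3.4e-08. The antisense gene OAZ3, whose span overlaps MRPL9, had a log2 fold change of 0.80.

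Among the other large subunit genes that fell, MRPL1 encodes the protein of the flexible stalk by which used tRNA leaves the ribosome. It went from 44.1 and 47.2 TPM to 32.4 and 31.7 TPM, and fell by 0.51 (adjusted p = 6.3e-06). MRPL37, a mitochondria-specific protein, went from 149 and 154 TPM to 107.1 and 106.9 TPM, and fell by 0.50 (adjusted p = 4.5e-07). Both METTL16 KO libraries were below both sgNS libraries in each gene, and the METTL16 KO libraries were nearly equal. The remaining lower genes of the large subunit were MRPL24, MRPL45, MRPL42, MRPL3, MRPL2, MRPL19 and MRPL30, with log2 fold changes from -0.36 (MRPL24) to -0.13 (MRPL30). All 11 lower MRPL genes were also lower under both other scalings, but some small falls lost their call with 1 library left out. The call of MRPL2 was lost without sgNS replicate 2 (log2 fold change -0.085), METTL16 KO replicate 1 (-0.21) or METTL16 KO replicate 2 (-0.12). That of MRPL30 was lost without METTL16 KO replicate 1 (-0.15) or METTL16 KO replicate 2 (-0.11), though its fall stayed about as large. MRPL19 is taken up with the levels.

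The largest rise was in MRPL46, which encodes a mitochondria-specific protein of the central protuberance, the part of the large subunit that faces the small subunit. It lies on the minus strand of chromosome 15 from 88459477 to 88467390. Its levels were 67.1 and 67.8 TPM in sgNS and 114 and 115 TPM in METTL16 KO. The 2 libraries of each group nearly coincided. The log2 fold change was 0.77 (standard error 0.039), a 1.70-fold rise, with an adjusted p of 2.5e-08.

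MRPL38 encodes another protein of the central protuberance. It had 68.9 and 66.6 TPM in sgNS, against 101 and 106 TPM in METTL16 KO, with a log2 fold change of 0.62 (adjusted p = 3.1e-07). MRPL50, a mitochondria-specific protein, had 121 and 133 TPM against 192 and 196 TPM, with a log2 fold change of 0.61 (adjusted p = 5.5e-07). The sgNS libraries of MRPL50 differed more than those of MRPL38 and still lay well below METTL16 KO.

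MRPL41, mitochondria-specific as well, had the highest mean level of the family. It had 404 and 387 TPM in sgNS, against 595 and 599 TPM in METTL16 KO, and its change of 0.59 on the log2 scale (standard error 0.031) had an adjusted p of 3.1e-08. MRPL36 and MRPL32 completed the 6 largest rises of the large subunit. MRPL36 went from 60.6 and 69.0 TPM to 89.5 and 86.0 TPM (log2 fold change 0.44). MRPL32, whose precursor is cut by the mitochondrial m-AAA protease before assembly, went from 97.6 and 103.5 TPM to 135 and 137 TPM (log2 fold change 0.44). These 6 genes were also called higher under both other scalings, while MRPL36 was not called in the unmoderated model (adjusted p = 0.076).

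**Figure D3:**
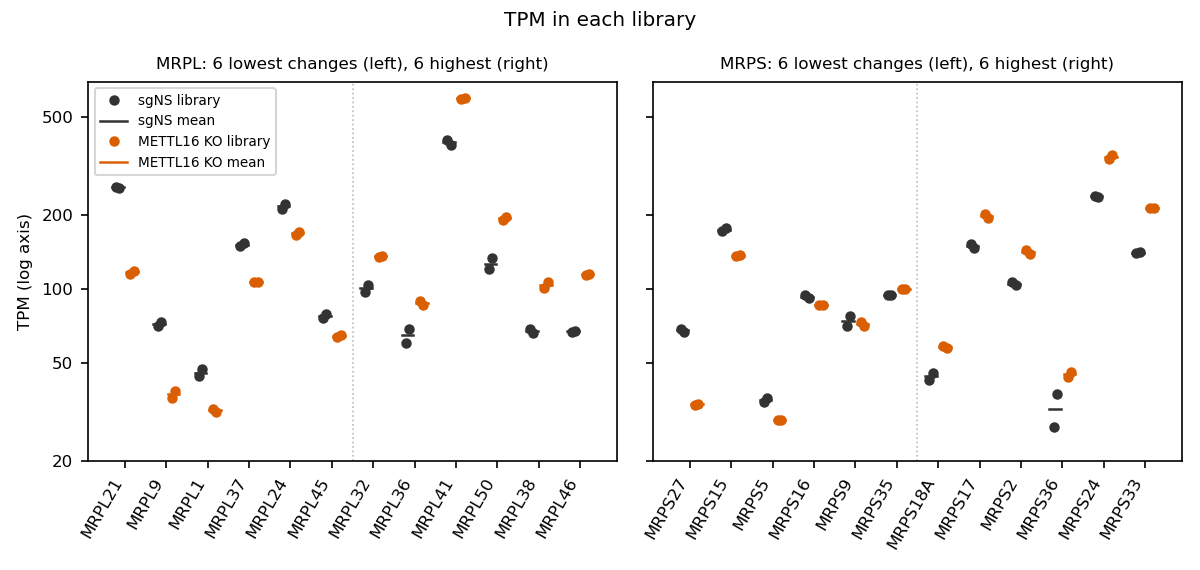
TPM in each library (points, log axis) and group mean (lines) for the 6 lowest and 6 highest log2 fold changes of the MRPL genes (left panel) and of the MRPS genes (right panel). MRPL21 drops from about 260 to about 117 TPM, and MRPL41 is the most abundant gene shown.

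The small subunit had 1 large fall. MRPS27 encodes a mitochondria-specific protein with pentatricopeptide repeats, a fold that binds RNA, and lies on the minus strand of chromosome 5 from 72214953 to 72321717. It had 69.0 and 67.1 TPM in sgNS, against 33.9 and 34.2 TPM in METTL16 KO. The level was about halved in both METTL16 KO libraries. The log2 fold change was -0.995 (standard error 0.046), a 1.99-fold fall, with an adjusted p of 1.2e-08.

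Lower too were MRPS15, MRPS5 and MRPS16, which have bacterial counterparts. MRPS15 went from 172 and 177 TPM to 136 and 137 TPM (log2 fold change -0.35, adjusted p = 5.4e-06). MRPS5, a protein near the entry of the messenger RNA, went from 34.8 and 35.9 TPM to 29.4 and 29.4 TPM (log2 fold change -0.27, adjusted p = 0.00067). MRPS16 changed least of the 4, from 94.3 and 92.2 TPM to 86.1 and 85.9 TPM (log2 fold change -0.12, adjusted p = 0.020). Its call was lost without METTL16 KO replicate 1 (log2 fold change -0.12) and without METTL16 KO replicate 2 (-0.11), though the fall stayed about as large. MRPS9 and MRPS35 had log2 fold changes of -0.04 and 0.08 and did not pass. MRPS9 was called lower under median-ratio scaling (-0.20, adjusted p = 0.0059) and quantile normalization (-0.17, adjusted p = 0.018).

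MRPS33, a mitochondria-specific protein, led the rises of the small subunit. It had 140 and 141 TPM in sgNS, against 213 and 214 TPM in METTL16 KO, and its change of 0.60 on the log2 scale (standard error 0.034) had an adjusted p of 5.4e-08. MRPS24, whose product has a bacterial counterpart, went from 239.7 and 237 TPM to 338 and 351 TPM (log2 fold change 0.53, adjusted p = 1.2e-07). No overlap between groups was seen in either gene. The read-through gene URGCP-MRPS24 shares the strand and span of MRPS24 and had a log2 fold change of 0.25 (standard error 0.43), so reads could have been divided between the 2.

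MRPS2 and MRPS17, both with bacterial counterparts, rose to a similar degree. MRPS2 went from 107 and 104 TPM to 145 and 139 TPM (log2 fold change 0.43, adjusted p = 2.1e-06). MRPS17 went from 152 and 147 TPM to 202 and 194 TPM (log2 fold change 0.41, adjusted p = 2.4e-06). MRPS36 had a log2 fold change of 0.49 with the largest standard error among these genes, 0.11 (adjusted p = 0.0018). Its levels were 27.5 and 37.4 TPM in sgNS and 44.02 and 45.9 TPM in METTL16 KO, and in the unmoderated model its adjusted p was 0.20.

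MRPS18A, MRPS18B and MRPS18C encode 3 related proteins that descend from 1 bacterial protein and occupy different sites. MRPS18A went from 42.6 and 45.6 TPM to 58.6 and 57.7 TPM, with a log2 fold change of 0.40 (adjusted p = 2.5e-05). MRPS18C went from 37.1 and 39.4 TPM to 49.6 and 47.0 TPM, with a log2 fold change of 0.34 (adjusted p = 0.00016). MRPS18B is the most abundant of the 3 and changed least. It had 86.3 and 82.9 TPM against 91.3 and 92.3 TPM, and its log2 fold change of 0.12 (adjusted p = 0.023) turned to -0.047 under median-ratio scaling and to -0.032 under quantile normalization, with no call in either. Its call was also lost without sgNS replicate 2, METTL16 KO replicate 1 or METTL16 KO replicate 2, with log2 fold changes of 0.089, 0.13 and 0.11.

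Within the large subunit, genes were also read by the site of their products. The stalk that recruits translation factors is formed around MRPL10, MRPL11 and MRPL12, with MRPL53 and MRPL54 nearby. Of these 5 genes 3 were higher (60%, next to 50.1% of all genes) and 2 did not pass, and the median was 0.20, next to 0.16. MRPL10 went from 70.6 and 76.2 TPM to 96.3 and 101 TPM (log2 fold change 0.43, adjusted p = 1.2e-05). MRPL11 went from 430.1 and 413 TPM to 489.6 and 487 TPM (log2 fold change 0.21, adjusted p = 9.5e-05). MRPL53 had a log2 fold change of 0.20 (adjusted p = 0.0012). MRPL10 was called under both other scalings, while under median-ratio scaling MRPL11 (0.048) and MRPL53 (0.039) were not. MRPL12, which also binds the mitochondrial RNA polymerase, had a log2 fold change of 0.10 (adjusted p = 0.082), and MRPL54 had 0.08 (adjusted p = 0.078). Leaving out sgNS replicate 1 brought the adjusted p to 0.0043 for MRPL12 and to 0.025 for MRPL54.

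The exit tunnel, through which the new protein leaves, has 7 genes here. Of these, 2 were higher, 2 were lower and 3 did not pass, or 28.6% in each direction next to 50.1% higher and 25.6% lower over all genes, with a median of 0.05. Median-ratio scaling gave 1 higher and 4 lower with a median of -0.12, and quantile normalization gave 1 higher and 3 lower with a median of -0.066. MRPL24 went from 212 and 222 TPM to 166 and 170.4 TPM (log2 fold change -0.36, adjusted p = 5.2e-06). MRPL45, which helps to hold the ribosome at the inner membrane where most of its products are inserted, went from 76.5 and 79.5 TPM to 63.7 and 65.03 TPM (log2 fold change -0.28, adjusted p = 0.00014). MRPL22 had 28.3 and 28.3 TPM against 34.6 and 35.5 TPM (log2 fold change 0.31, adjusted p = 0.00023). MRPL44, which resembles an RNA-cutting enzyme, had a log2 fold change of 0.14 (adjusted p = 0.024) that turned to -0.021 under median-ratio scaling. The call of MRPL44 was lost without sgNS replicate 1 (log2 fold change 0.12) and without METTL16 KO replicate 2 (0.094). MRPL17, MRPL23 and MRPL47 had log2 fold changes of -0.03, 0.07 and 0.05 and did not pass. MRPL17 was called lower under median-ratio scaling (-0.20, adjusted p = 0.0032) and quantile normalization (-0.18, adjusted p = 0.0071), and MRPL47 under median-ratio scaling (-0.12, adjusted p = 0.012).

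In the central protuberance, 4 of 6 genes tested were higher (66.7%, next to 50.1% of all genes) and 2 did not pass, with a median of 0.30. Median-ratio scaling gave 3 higher and 1 lower, MRPL48 (-0.24, adjusted p = 0.0015), with a median of 0.14. MRPL55 joined MRPL46 and MRPL38, going from 99.5 and 91.6 TPM to 128 and 127 TPM (log2 fold change 0.41, adjusted p = 9.1e-06). MRPL40 had 83.7 and 87.2 TPM against 93.4 and 102 TPM, with a log2 fold change of 0.20 (adjusted p = 0.0043). Its call was lost without METTL16 KO replicate 2 (log2 fold change 0.13) and under median-ratio scaling (0.030). MRPL27 (0.07) and MRPL48 (-0.07) did not pass, and their libraries overlapped between groups. Without sgNS replicate 1 the adjusted p of MRPL27 was 0.0076, and without sgNS replicate 2 that of MRPL48 was 0.019.

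The genes were next divided by whether the protein has a bacterial counterpart. MRPS18A and MRPS18B, which descend from the same bacterial protein as MRPS18C, were counted here as mitochondria-specific. In the large subunit, 11 of 29 genes with a counterpart were higher and 8 were lower (median 0.07), and 13 of 19 mitochondria-specific genes were higher and 3 were lower (median 0.20). In the small subunit, 11 of 16 genes with a counterpart were higher and 3 were lower (median 0.33), and 7 of 9 mitochondria-specific genes were higher and 1 was lower (median 0.19). The higher and lower shares of genes with a counterpart were 37.9% and 27.6% in the large and 68.8% and 18.8% in the small subunit, and those of mitochondria-specific genes were 68.4% and 15.8% in the large and 77.8% and 11.1% in the small subunit. Over all genes tested they were 50.1% and 25.6%, with a median of 0.16. The 8 lower large subunit genes with a counterpart include MRPL21, MRPL9 and MRPL1. Under median-ratio scaling the median of the bacterial-type large subunit genes was -0.096, with 7 higher and 14 lower, and that of the mitochondria-specific ones was 0.04, with 9 higher and 4 lower. In the small subunit it left 9 higher and 4 lower genes with a counterpart (median 0.16), but only 2 higher and 1 lower mitochondria-specific genes (median 0.029), and quantile normalization also left 2 and 1 of the latter (median 0.065). No test between these classes was run.

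Levels spanned a wide range within the family. Mean TPM over the 4 libraries ran from 11.9 for MRPL43 to 496 for MRPL41, with a median of 88.9 next to 24.5 over all genes tested. The 3 highest were MRPL41, MRPL11 (455 TPM) and MRPL51 (393 TPM). MRPL51 went from 349.6 and 355 TPM to 433 and 434 TPM, with a log2 fold change of 0.30 (adjusted p = 4.3e-06). The 3 lowest were MRPL43, MRPS11 (21.8 TPM) and MRPL19 (23.2 TPM). MRPL43 did not pass (0.11, adjusted p = 0.17). MRPL19 had 23.9 and 24.7 TPM against 21.9 and 22.1 TPM, with a log2 fold change of -0.14 (adjusted p = 0.037). Its call was lost without sgNS replicate 2 (log2 fold change -0.12), METTL16 KO replicate 1 (-0.14) or METTL16 KO replicate 2 (-0.15), though the fall stayed about as large. With the replicate block its adjusted p was 0.0504. The coefficient of variation of TPM over the 74 genes was 79.7% and 77.3% in sgNS and 89.5% and 89.0% in METTL16 KO. Most proteins of the ribosome are present in it in equal numbers, but TPM measures RNA, and these libraries hold no protein levels.

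Proteins of the mitoribosome whose genes bear other symbols were also examined. Of 6 such genes, 3 were higher (next to 50.1% of all genes) and 3 did not pass, and the median change (log2) was 0.16, as over all genes. Under median-ratio scaling 2 were higher and 2 (CHCHD1 and GADD45GIP1) were lower, with a median of -0.0080. ICT1, a ribosome-bound enzyme that frees stalled chains, went from 35.4 and 36.5 TPM to 56.3 and 52.6 TPM (0.60, adjusted p = 1.4e-06). DAP3, a GTP-binding protein of the small subunit, went from 246 and 247 TPM to 302 and 317 TPM (0.33, adjusted p = 6.6e-06). AURKAIP1, of the small subunit, had a log2 fold change of 0.23 (adjusted p = 0.00018), while median-ratio scaling gave 0.063 and no call. PTCD3 (0.09), GADD45GIP1 (0.02) and CHCHD1 (-0.06) did not pass.

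Assembly factors build the ribosome and modify its RNA without staying in it. Of 25 tested, 15 were higher (60%, next to 50.1% of all genes), 3 were lower (12%, next to 25.6%) and 7 did not pass, and the median change (log2) was 0.27. MPV17L2, an inner membrane protein needed for the large subunit, went from 45.3 and 43.4 TPM to 73.3 and 73.1 TPM (0.72, adjusted p = 1.2e-07). MTG2, a GTPase of late large subunit assembly, went from 19.2 and 18.9 TPM to 31.8 and 30.3 TPM (0.70, adjusted p = 9.1e-07). MTERF3 had a log2 fold change of 0.56 (adjusted p = 1.6e-05). The 3 lower genes were GTPBP6, a GTPase that also recycles ribosomes (-0.55, adjusted p = 0.0012), RPUSD3, of the pseudouridine synthase family (-0.41, adjusted p = 2.5e-05), and METTL17, which acts on the small subunit (-0.14, adjusted p = 0.045). Under median-ratio scaling 12 assembly factors were higher and 7 were lower.

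Translation factors carry the ribosome through initiation, elongation, release and recycling. Of 16 tested, 9 were higher (56.2%, next to 50.1% of all genes), 3 were lower (18.8%, next to 25.6%) and 4 did not pass, with a median of 0.26. MTRF1, of the release factor family, went from 9.80 and 9.26 TPM to 13.0 and 15.0 TPM (0.55, adjusted p = 0.00015). MTIF2, the factor that brings the initiator tRNA, went from 53.8 and 52.0 TPM to 76.7 and 70.1 TPM (0.47, adjusted p = 1.0e-05). GFM2, a recycling factor, had 0.41 (adjusted p = 4.6e-05). Lower were the elongation-associated GTPase GUF1 (-0.22, adjusted p = 0.0026), C12orf65 (-0.21, adjusted p = 0.016), which rescues stalled ribosomes, and TSFM (-0.18, adjusted p = 0.0076), which recharges the elongation factor TUFM. Under median-ratio scaling 7 were higher and 6 were lower.

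Regulators of mitochondrial transcription and biogenesis had 7 of 13 genes higher while 6 did not pass, with a median of 0.16. Both the share (53.8%) and the median are near those of all genes (50.1% and 0.16). MYC, a general activator of ribosome production, went from 68.2 and 65.9 TPM to 112 and 109 TPM (0.72, adjusted p = 6.5e-08). ESRRA, a nuclear receptor of mitochondrial genes, had 0.52 (adjusted p = 5.1e-05) and its coactivator relative PPRC1 had 0.45 (adjusted p = 1.8e-05). The factors named for the promoters did not pass: YY1 had -0.01 (adjusted p = 0.92), NRF1 had -0.02 (adjusted p = 0.81) and GABPA had 0.06 (adjusted p = 0.38). TFAM, which packs and transcribes mitochondrial DNA, had -0.07 (adjusted p = 0.20). After median-ratio scaling 4 of the 13 were higher and 3 (TFAM, NRF1 and YY1) were lower. The genes encoded in mitochondrial DNA are not analysed here.

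Many mitochondrial ribosomal protein genes sit head to head with another gene, so that both start close together on opposite strands. A protein-coding gene with such a start within 1000 bp (or overlapping by up to 100 bp) was found for 24 of the 74 genes, which gave 20 pairs with both genes tested. In 7 pairs both genes were higher, in 1 pair both were lower, in 2 pairs they were called in opposite directions, and in 10 pairs at most 1 gene was called. Over the 637 pairs that the same rule finds among all genes tested, both genes were higher in 30.5%, both lower in 5.97%, opposite in 18.8% and at most 1 called in 44.7%. Of the 7 pairs, 2 rest on MRPL13 (0.10) and MRPL40 (0.20), which were not called under median-ratio scaling (-0.062 and 0.030). Neither was called without METTL16 KO replicate 2 (log2 fold changes 0.10 and 0.13), and MRPL13 was not called without METTL16 KO replicate 1 either (0.10). MRPL46 and MRPS11, from different subunits, start 320 bp apart and were both higher. MRPS11, a small subunit protein with a bacterial counterpart, went from 19.4 and 18.3 TPM to 24.5 and 25.2 TPM, a log2 fold change of 0.40 (adjusted p = 0.00013).

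MRPL21 starts 59 bp from IGHMBP2, which encodes a helicase. IGHMBP2 went from 23.9 and 22.8 TPM to 34.6 and 34.9 TPM (log2 fold change 0.57, adjusted p = 2.9e-06), while MRPL21 fell by 1.15. MRPS12, a protein of the decoding site, had a log2 fold change of 0.32 (adjusted p = 0.00013). Its neighbour SARS2, the mitochondrial seryl-tRNA synthetase, starts 181 bp away and had 10.2 and 10.6 TPM against 5.93 and 6.63 TPM (-0.72, adjusted p = 2.7e-05). ZNF189, which starts 233 bp from MRPL50, went from 30.7 and 29.5 TPM to 86.0 and 82.2 TPM (1.48, adjusted p = 8.5e-10), a larger change than the 0.61 of MRPL50. PTCD2, 133 bp from MRPS27, had -0.09 (adjusted p = 0.32), against -0.995 for MRPS27. MRPL30 and MITD1, 126 bp apart, were the pair that was lower together (-0.13 and -0.54). This pair rests on the call of MRPL30, which ended without METTL16 KO replicate 1 (log2 fold change -0.15) or METTL16 KO replicate 2 (-0.11).

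**Figure D4:**
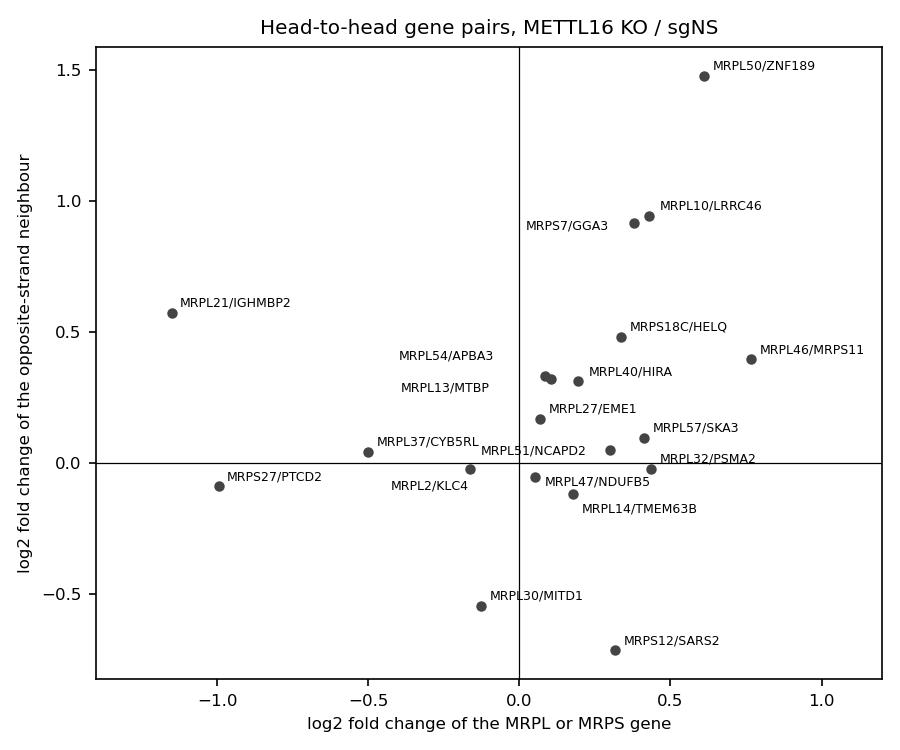
Log2 fold change of the mitochondrial ribosomal protein gene (horizontal axis) and of the gene that starts beside it on the opposite strand (vertical axis) in METTL16 KO against sgNS, for 20 pairs. MRPL21/IGHMBP2 (-1.15 and 0.57) and MRPS12/SARS2 (0.32 and -0.72) lie in the quadrants of opposite direction with both genes called.

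Genes that overlap others limit how far a single value can be trusted. Among genes of the expression table on the same strand, MRPL53 overlaps CCDC142 (log2 fold change 0.49), MRPS6 overlaps SLC5A3 (-0.34) and MRPS24 overlaps URGCP-MRPS24. Further members, MRPL46 and MRPL38 among them, overlap on the same strand a protein-coding gene that has no value there. Of the 74 genes, 22 overlap a protein-coding gene of the table on either strand. The libraries came from a stranded kit, but whether strand was used in counting is not given in the sources used here, so reads of such pairs cannot be told apart.

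The promoter motifs were finally set beside the calls on TPM as deposited, and not beside those of the other scalings. AAGATGGC was present in 16 of the 40 higher genes with a window, in 3 of the 13 lower genes and in 1 of the 13 that did not pass. The median log2 fold change was 0.31 in genes with it and 0.14 in genes without it. CCGGAAG, the core motif of ETS factors, was present on either strand in 28 of the 66 windows (42.4%), against 10.7% of all RefSeq promoters and 19.7% of those of genes tested. It stood in 18 of 40 higher, 3 of 13 lower and 7 of 13 other genes, with medians of 0.19 with it and 0.18 without it. GCGCATGC, the core motif of NRF1, was present in 6 of the 66 (9.09%), against 3.27% of all promoters and 5.59% of those of genes tested. This motif stood in 5 of 40 higher, 0 of 13 lower and 1 of 13 other genes, with medians of 0.32 with it and 0.18 without it. At least 1 of the 3 motifs was found in 41 windows (62.1%), and in no window did a YY1 match share bases with an ETS match. The letters describe these windows and do not show binding.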

How the data were processed

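RNA-seq libraries of Huh7 cells (2 sgNS and 2 METTL16 KO) were analysed. After trimming (Cutadapt), the authors aligned the reads to GRCh38 by STAR, estimated gene levels by RSEM and deposited 1 table of TPM per gene symbol with 2 decimals. RPKM is the unit named in the methods, whereas the columns each add up to 1000000, as TPM do. TPM is per length, so levels may be compared between genes. Genes with a mean of at least 1 TPM were tested on log2(TPM + 0.1) with limma 3.58.1 in R 4.3.3 (lmFit, eBayes with trend), METTL16 KO against sgNS, with Benjamini-Hochberg adjustment over all 11971 genes tested. The pseudocount makes fold changes of low genes too small. The smallest two-sided p of an exact permutation test is 0.33 with 2 libraries a group. Positions come from GENCODE 44, promoters from RefSeq (GRCh38.p14). On simulated data for the 11971 genes, 200 of 200 genes changed by 0.5 (log2) were recovered and 11 others called. The simulated noise had the same spread in every gene and only these 200 genes were changed, unlike the data. This run therefore checks that the model was fitted properly, and not how reliable the calls are.

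The members and lists were chosen with earlier results of these data known. Named were the 6 highest and 6 lowest log2 fold changes in each subunit, and the 3 highest and lowest levels. Among the 6 lowest of the MRPS genes, MRPS35 had a positive change (0.08). Also named were all genes of the stalk, exit tunnel, central protuberance, MRPS18 and other-symbol lists, the 3 largest called changes in each direction of the other lists, and METTL16. OAZ3, CCDC142, SLC5A3, URGCP-MRPS24 and the head-to-head neighbours, and the further lower genes and pairs, were named in addition. The pseudocount, the low-level filter, scaling, the limma trend and moderation, the replicate block and each library left out were varied.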

Additional observations from a re-analysis of the deposited data

How the results depend on the processing

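Median-ratio scaling gave 18 lower and 14 higher MRPL genes (11 and 22 on TPM as deposited), quantile normalization gave 17 lower, and an unmoderated linear model gave 7 lower and 14 higher MRPL and 12 higher MRPS genes (21), with 1949 lower genes overall (3065). The MRPL median (0.11) was -0.059 under median-ratio scaling and -0.017 under quantile normalization, and the MRPS median (0.29) was 0.13 and 0.16. The log2 ratio of summed TPM was -0.040 and 0.028 for MRPL, and 0.082 and 0.15 for MRPS. Leaving out each library in turn, the MRPS median by symbol ran from 0.26 to 0.31, and with genes counted by place in the ribosome it was 0.23. Of the 58 members called, 2, 4, 7 and 13 lost the call without sgNS replicate 1, sgNS replicate 2, METTL16 KO replicate 1 and METTL16 KO replicate 2, and 0 changed sign. Of the same 58, the direction of 5 turned under median-ratio scaling (MRPL13, MRPL20, MRPL44, MRPS18B and MRPS34) and that of 1 (MRPS18B) under quantile normalization, and in none was the turned value called. Under median-ratio scaling the log2 fold changes were -0.062 for MRPL13, -0.0087 for MRPL20, -0.021 for MRPL44, -0.047 for MRPS18B and -0.024 for MRPS34, and quantile normalization gave -0.032 for MRPS18B. Pseudocounts of 1 and 0.01, both filters and limma without trend moved no count of MRPL or MRPS calls by over 1.5 times. Of 34 called members that were named by rank, level or list, 24 kept the call in all 13 alternatives, and METTL16 stayed lower in all. Members named in addition, such as MRPL2, MRPL13 and MRPL30, are outside this count. The cause of these shifts was not tested.

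Deviations of same-numbered libraries correlated at -0.044 over all genes and -0.10 over the members. With 2 libraries a group, this cannot show whether the replicate numbers pair the libraries. With the replicate block, 10 MRPL genes were lower and 22 higher, 4 MRPS genes were lower and 21 higher, and MRPL19 was the member that lost its call. TPM gives no depth, so the precision of a single value rests on the spread of 2 libraries.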
